A study of Homo sapiens with 6 samples.

Results

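The mitochondrial ribosome is built from proteins that nuclear genes encode, and its large (MRPL) and small (MRPS) subunit genes were followed in neuroblastoma cells depleted of CSB or CSA. Members were the protein-coding genes whose symbol begins with MRPL or MRPS followed by a number. There were 77 of them among 32575 genes listed, 16555 of which were protein coding. The large subunit had 48 and the small subunit 29. All 77 passed the filter on low values, a mean of at least 1 in at least 1 group. They lie on 21 chromosomes.

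The samples were 6 RNA sequencing libraries of SH-SY5Y, a human neuroblastoma line. A lentiviral short hairpin RNA against CSB (gene ERCC6), one against CSA (gene ERCC8) or a control hairpin gave the CSB knockdown, the CSA knockdown and the control, with 2 libraries each. Every group, the control included, was selected with puromycin and kept for 2 to 3 weeks after transduction. The genotype labels of the depleted groups say mutant where the protocols say hairpin, so the word knockdown is used, and the sources used here do not tell pools from clones. CSB, a DNA-dependent ATPase, and CSA, the substrate receptor of a ubiquitin ligase, serve the repair of transcribed DNA, and the comparisons address which transcripts change when each is depleted.

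Mitochondrial ribosomes translate the few messenger RNAs that the mitochondrial genome encodes, all for subunits of the oxidative phosphorylation complexes. Their ribosomal RNAs are mitochondrial transcripts, but each of their proteins is made in the cytosol, imported and assembled on that RNA inside the organelle. The large subunit forms peptide bonds and feeds the nascent chain through an exit tunnel to the inner membrane, and the small subunit holds the messenger RNA and reads its codons. Some of the proteins descend from bacterial ribosomal proteins and others arose in mitochondria.

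The values are scaled counts, which are gene read counts multiplied by one factor per library, as the submitters scaled them. A fold change is the difference of log2(scaled count + 1) between group means, followed by its standard error (SE). A gene rose or fell where limma gave a Benjamini-Hochberg adjusted p below 0.05 over all 28388 genes tested. Nothing in the labels ties both libraries of a group to separate cultures, so p-values reflect the variation among these 6 libraries, which may be technical. In bulk RNA, fewer cells of a type and less RNA per cell cannot be told apart.

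The libraries held 19368272 to 26758162 gene-assigned reads. ERCC6 had 258 and 302 under CSB knockdown and 615 and 593 in the controls (-1.11 ± 0.08, adjusted p = 2.1e-06), and ERCC8 had 61.8 and 57.2 under CSA knockdown and 219 and 217 in the controls (-1.86 ± 0.13, adjusted p = 8.8e-07), so each targeted gene was lower in the group named after it. All 13 adrenergic neuroblastoma markers were detected, with a summed scaled count of 139146 to 167455 in the 6 libraries, and 5 rose and 3 fell in the CSB knockdown and 3 rose and 4 fell in the CSA knockdown. Of 13 mesenchymal, Schwann-type or fibroblast markers 12 were listed, all but SOX10, and their sum was 44073 and 46198 under CSB knockdown, 15718 and 14983 under CSA knockdown, and 34421 and 34202 in the controls. The 4 epithelial markers summed to 87.7 to 185. Among haematopoietic markers, PTPRC had at most 3.86 in any library, and HBB had 373 in control replicate 2 and none in the other 5 libraries. The part of these markers in the results below was not tested.

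Together the members took 0.311% and 0.294% of the scaled counts under CSB knockdown, 0.344% and 0.351% under CSA knockdown and 0.340% and 0.342% in the controls. The CSB knockdown libraries were the lowest and did not overlap with the other 4, while those of the CSA knockdown lay just above the controls. Large subunit genes summed to 1.63 and 1.62 times the small subunit genes under CSB knockdown, 1.62 and 1.73 times under CSA knockdown, and 1.69 and 1.65 times in the controls. That ratio of summed scaled counts lay within a narrow span in every group, with the highest value in CSA knockdown replicate 2.

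Levels between genes were compared per kilobase of gene model in the control libraries. The median over members was 309.7 scaled counts per kilobase, and 46 of the 77 lay within 2-fold of it. The 4 highest were MRPS21 (2559.6 and 2643 in control replicates 1 and 2), MRPS34 (1686 and 1789), MRPS26 (1709 and 1718) and MRPL51 (1428 and 1363). MRPS21 is a counterpart of bacterial S21, whereas MRPS34 and MRPS26 have no bacterial counterpart. The 4 lowest were MRPS24 (1.90 and 5.17 scaled counts per kilobase), MRPL46 (11.0 and 10.9), MRPS18C (11.4 and 14.3) and MRPS28 (14.8 and 15.4). The highest mean was 736 times the lowest, that of MRPS24, which had few reads. Large subunit genes had a median of 324 scaled counts per kilobase and small subunit genes 251.

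Subunits of one particle thus stood far apart in scaled count per length, and some share exons with other genes. Of the 77 members, 6 had a control mean under 100 scaled counts, namely MRPS24, MRPL46, MRPS18C, MRPS28, MRPL38 and MRPL53. All 6 share at least 10% of their exon bases with another GENCODE v29 gene on either strand, as do 26 of the 77 members in all, among them MRPL51 (31.3%), one of the 4 highest. For MRPS24, 23.2% of exon bases are shared on the same strand with the readthrough gene URGCP-MRPS24, and for MRPL53 45.2% with CCDC142. The 7 members that share at least 20% of their exon bases on the same strand (MRPL12, MRPL53, MRPL38, MRPS28, MRPS17, MRPS24 and MRPL33) had a median of 58.7 scaled counts per kilobase, against 316 for the other members. The sources used here do not tell how reads in shared exons were counted, so the levels and folds of these 7 are uncertain. No strand setting was given either, so exons shared across strands leave the same doubt. Among the members this touches are MRPS18A (47.0%), MRPS18C (40.2%) and MRPS25 (22.2%). MRPS24 had 1 and 8 reads under CSB knockdown, 6 and 8 under CSA knockdown and 5 and 14 in the controls, and no fold is given for it.

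**Figure D1:**
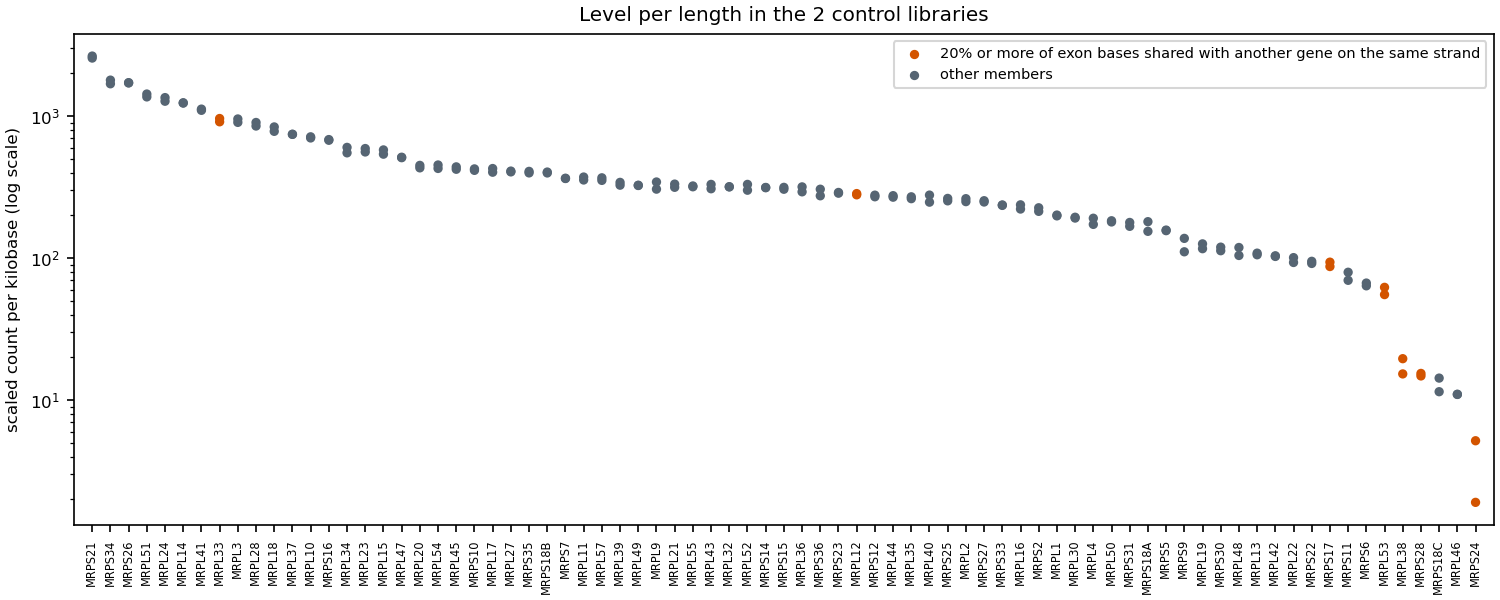
Scaled count per kilobase of gene model (log axis) of the 77 members in both control libraries, ranked by their mean. Each point is 1 library, orange members share at least 20% of their exon bases with another gene on the same strand, and the 6 lowest are the 6 members with a control mean under 100.

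In the CSB knockdown, mitochondrial ribosomal protein genes that passed the test were nearly all lower. Of the 77, 20 fell and 1 rose, or 27.3% called against 23.6% of all tested genes. Those that fell were 26.0% of members, against 8.86% of all tested genes, and the 1 that rose was 1.30%, against 14.8%. The median fold change was -0.09 on the log2 scale over members and 0.10 over all tested genes. Shifts were small. The median SE of a member was 0.07, the largest called fall was -0.59, and for 61 members the 95% interval lay within 0.5 of 0 on the log2 scale.

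Among protein-coding genes with a mean of at least 100 scaled counts, of which there were 11281, 47.8% were called in the CSB knockdown, 28.6% higher and 19.2% lower. At that level 71 members remained. With other scalings the 1 rise was lost and more members fell. With TMM, DESeq2 size factor, upper quartile or quantile scaling 24 to 31 members fell and none rose, and the member median was -0.13 to -0.18. The median of all tested genes moved too, from 0.10 as deposited to between 0.00 and 0.06. The share of all genes that fell with these scalings is not given here, so these counts stand without a background.

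Members were lower in one CSB knockdown library than in the other. In replicate 2, 61 of 77 members were lower than in replicate 1, with a median difference of -0.08 on the log2 scale, whereas 47.9% of all genes with a mean of at least 100 were lower, with a median of 0.00. Without that library 2 members were called in the CSB knockdown against control, with 6 without CSB knockdown replicate 1 and 4 without either control library. The member median was -0.06 without CSB knockdown replicate 2 and -0.12 without CSB knockdown replicate 1. Leaving out a library also leaves fewer residual degrees of freedom, and the share of all genes called then fell to between 6.28% and 8.47% in these 4 fits.

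MRPL47 is the counterpart of bacterial L29 at the rim of the exit tunnel (chr3:179588285-179604654, minus strand, hg38). Its scaled counts were 466 and 494 under CSB knockdown, 673 and 712 under CSA knockdown and 697 and 702 in the controls. Both CSB knockdown libraries lay below the other 4, which overlapped, and MRPL47 fell in the CSB knockdown (-0.54 ± 0.07, adjusted p = 9.5e-05). Its change in the CSA knockdown was -0.02 ± 0.07, adjusted p = 0.921, with a 95% interval of -0.16 to 0.13.

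MRPL3, the counterpart of bacterial L3, reaches from the surface of the large subunit towards the peptidyl transferase centre (chr3:131462212-131502983, minus strand). It had 1930.0 and 1839.8 under CSB knockdown, 2413 and 2417 under CSA knockdown and 2449 and 2588 in the controls. The CSB knockdown was again lowest without overlap, and the fall against control was -0.42 ± 0.05, adjusted p = 0.00011. Under CSA knockdown the change was -0.06 ± 0.05, adjusted p = 0.502. MRPL47 and MRPL3 were the only members whose call in the CSB knockdown held with each of the 6 libraries left out, with adjusted p of at most 0.0403 and 0.0431.

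MRPL54, a protein of the large subunit with no bacterial counterpart, had 297 and 286 under CSB knockdown, 359.9 and 389 under CSA knockdown and 429 and 453 in the controls (chr19:3762664-3768575, plus strand). All 3 groups were apart, with the CSB knockdown lowest, and the fall in the CSB knockdown (-0.59 ± 0.08, adjusted p = 0.00019) was the largest called. It missed the threshold only without CSB knockdown replicate 2 (adjusted p = 0.0507). Under CSA knockdown the value was -0.24 ± 0.08, adjusted p = 0.0649.

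MRPS34, which binds the ribosomal RNA of the small subunit, had 1351 and 1379 under CSB knockdown, 1614 and 1779.5 under CSA knockdown and 1850.0 and 1963 in the controls (chr16:1771890-1773155, minus strand). The CSB knockdown libraries were lowest and did not overlap with the rest (-0.48 ± 0.06, adjusted p = 0.00011). The adjusted p was 0.0513 without control replicate 2, 0.0642 without CSB knockdown replicate 1 and 0.0704 without CSB knockdown replicate 2.

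Other large falls in the CSB knockdown were those of MRPS17 (-0.46 ± 0.11, adjusted p = 0.00758), MRPL19 (-0.45 ± 0.09, adjusted p = 0.00249), MRPL12 (-0.41 ± 0.09, adjusted p = 0.00599) and MRPL15 (-0.39 ± 0.08, adjusted p = 0.00307). MRPS17, MRPL19 and MRPL15 are counterparts of bacterial S17, L19 and L15, and MRPL12 forms the stalk that recruits translation factors. MRPS17 and MRPL12 are among the members with shared exons. Each of these 4 lost its call without either CSB knockdown library and without either control library, and MRPL19 also without CSA knockdown replicate 2. The highest adjusted p was 0.0946 for MRPS17, 0.149 for MRPL19, 0.0852 for MRPL12 and 0.161 for MRPL15.

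The remaining 12 that fell were MRPL24, MRPL33, MRPL13, MRPL57, MRPL20, MRPS7, MRPL39, MRPL50, MRPS27, MRPS5, MRPS14 and MRPS16, with fold changes between -0.39 and -0.20. Each lost its call without at least 1 library. MRPS11, the counterpart of bacterial S11 at the platform of the small subunit, was the member that rose. It had 515 and 479 under CSB knockdown, 418 and 421 under CSA knockdown and 392 and 447 in the controls (0.25 ± 0.08, adjusted p = 0.0486). Its call was lost in 15 of 18 alternatives, all 6 left-out libraries among them, with an adjusted p of 0.156 by edgeR and 0.389 by DESeq2.

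**Figure D2:**
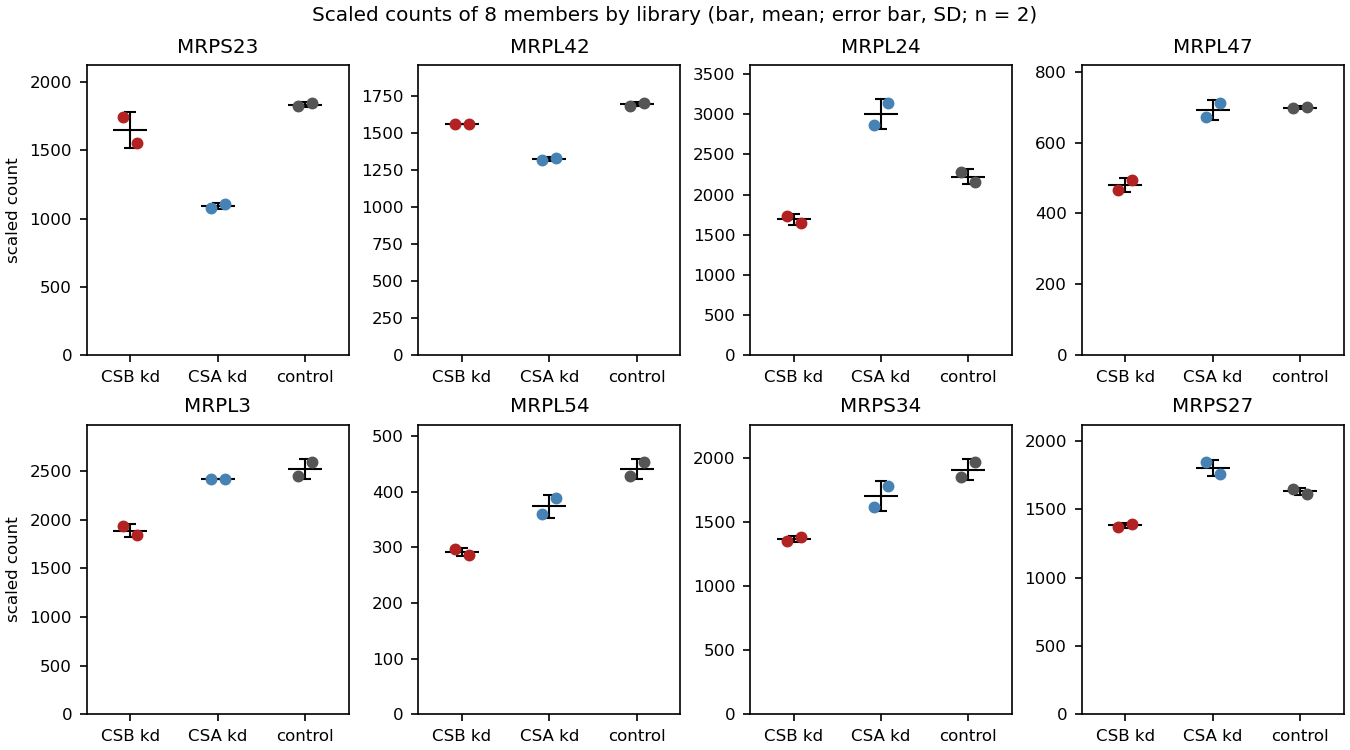
Scaled counts of 8 members in the CSB knockdown (red), the CSA knockdown (blue) and the control (grey). Points are libraries, horizontal bars are means and error bars are SD (n = 2). MRPS23 and MRPL42 are lowest in the CSA knockdown, MRPL24 is highest there, and the other 5 are lowest in the CSB knockdown.

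In the CSA knockdown few members moved, and in both directions. Of the 77, 4 rose (MRPL24, MRPS33, MRPS25 and MRPL10) and 5 fell (MRPS23, MRPL12, MRPL42, MRPL20 and MRPL18). That is 11.7% called, against 18.8% of all tested genes, with 5.19% higher against 8.37% and 6.49% lower against 10.4%. Among the protein-coding genes with a mean of at least 100 scaled counts 38.2% were called, 16.7% higher and 21.5% lower. The member median was -0.01 and that of all tested genes 0.00. The sign of the member median changed with scaling, from -0.01 as deposited to 0.01 with upper quartile scaling, under which 5 rose and 4 fell. With that scaling the median of all tested genes was 0.02. For 68 members the 95% interval lay within 0.5 of 0 on the log2 scale.

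MRPS23, a small subunit protein without a bacterial counterpart, had 1743 and 1556 under CSB knockdown, 1075 and 1105 under CSA knockdown and 1825 and 1847 in the controls (chr17:57834781-57850056, minus strand). Its 2 CSA knockdown libraries lay far below both controls (-0.75 ± 0.06, adjusted p = 4.5e-06), at 0.59 of the control level. This was the largest called change of any member in either knockdown. The change under CSB knockdown was -0.16 ± 0.06, adjusted p = 0.0935. Within 1000000 bases on either side of MRPS23 there were 20 other genes with a mean of at least 100 scaled counts, of which 3 rose and 6 fell under CSA knockdown. Of protein-coding genes at that level 16.7% rose and 21.5% fell, and no test of the region was made.

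MRPL42, a large subunit protein without a bacterial counterpart, had 1556 and 1555 under CSB knockdown, 1315 and 1329 under CSA knockdown and 1682 and 1699.6 in the controls (chr12:93467488-93516213, plus strand). The 3 groups did not overlap, with the CSA knockdown lowest. The change was -0.12 ± 0.05, adjusted p = 0.121 in the CSB knockdown and -0.35 ± 0.05, adjusted p = 0.00037 in the CSA knockdown. MRPS23 and MRPL42 were the only members whose call in the CSA knockdown held with each of the 6 libraries left out, with adjusted p of at most 0.0345 and 0.0425.

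The other 7 calls in the CSA knockdown were each lost when at least 1 library was left out. MRPL10 (0.23 ± 0.05, adjusted p = 0.00656), which anchors the stalk, and MRPS25 (0.26 ± 0.05, adjusted p = 0.00445) lost theirs without either control library, with a highest adjusted p of 0.111 and 0.0936. MRPL24 (0.44 ± 0.06, adjusted p = 0.00025) lost it without either control library, CSA knockdown replicate 2 or CSB knockdown replicate 2, with a highest adjusted p of 0.0762. MRPL20 (-0.30 ± 0.07, adjusted p = 0.00702), a counterpart of bacterial L20, lost it without any one of the CSA knockdown and control libraries, with a highest adjusted p of 0.191. MRPL12 (-0.38 ± 0.09, adjusted p = 0.0107) and MRPS33 (0.27 ± 0.08, adjusted p = 0.0277) kept it only without CSA knockdown replicate 1, and their highest adjusted p was 0.115 and 0.303. By DESeq2 MRPL12 also missed the threshold (adjusted p = 0.0752). MRPL18 (-0.24 ± 0.07, adjusted p = 0.0437), a counterpart of the bacterial protein that binds 5S RNA, lost it in 13 of 18 alternatives. These were each of the 6 left-out libraries, with a highest adjusted p of 0.378, and DESeq2, TMM, upper quartile and quantile scaling, the pseudocount of 0.5, no filter and a fit of the 2 groups alone. With any 1 library left out fewer members were called in the CSA knockdown than with all 6, as were fewer of all tested genes.

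**Figure D3:**
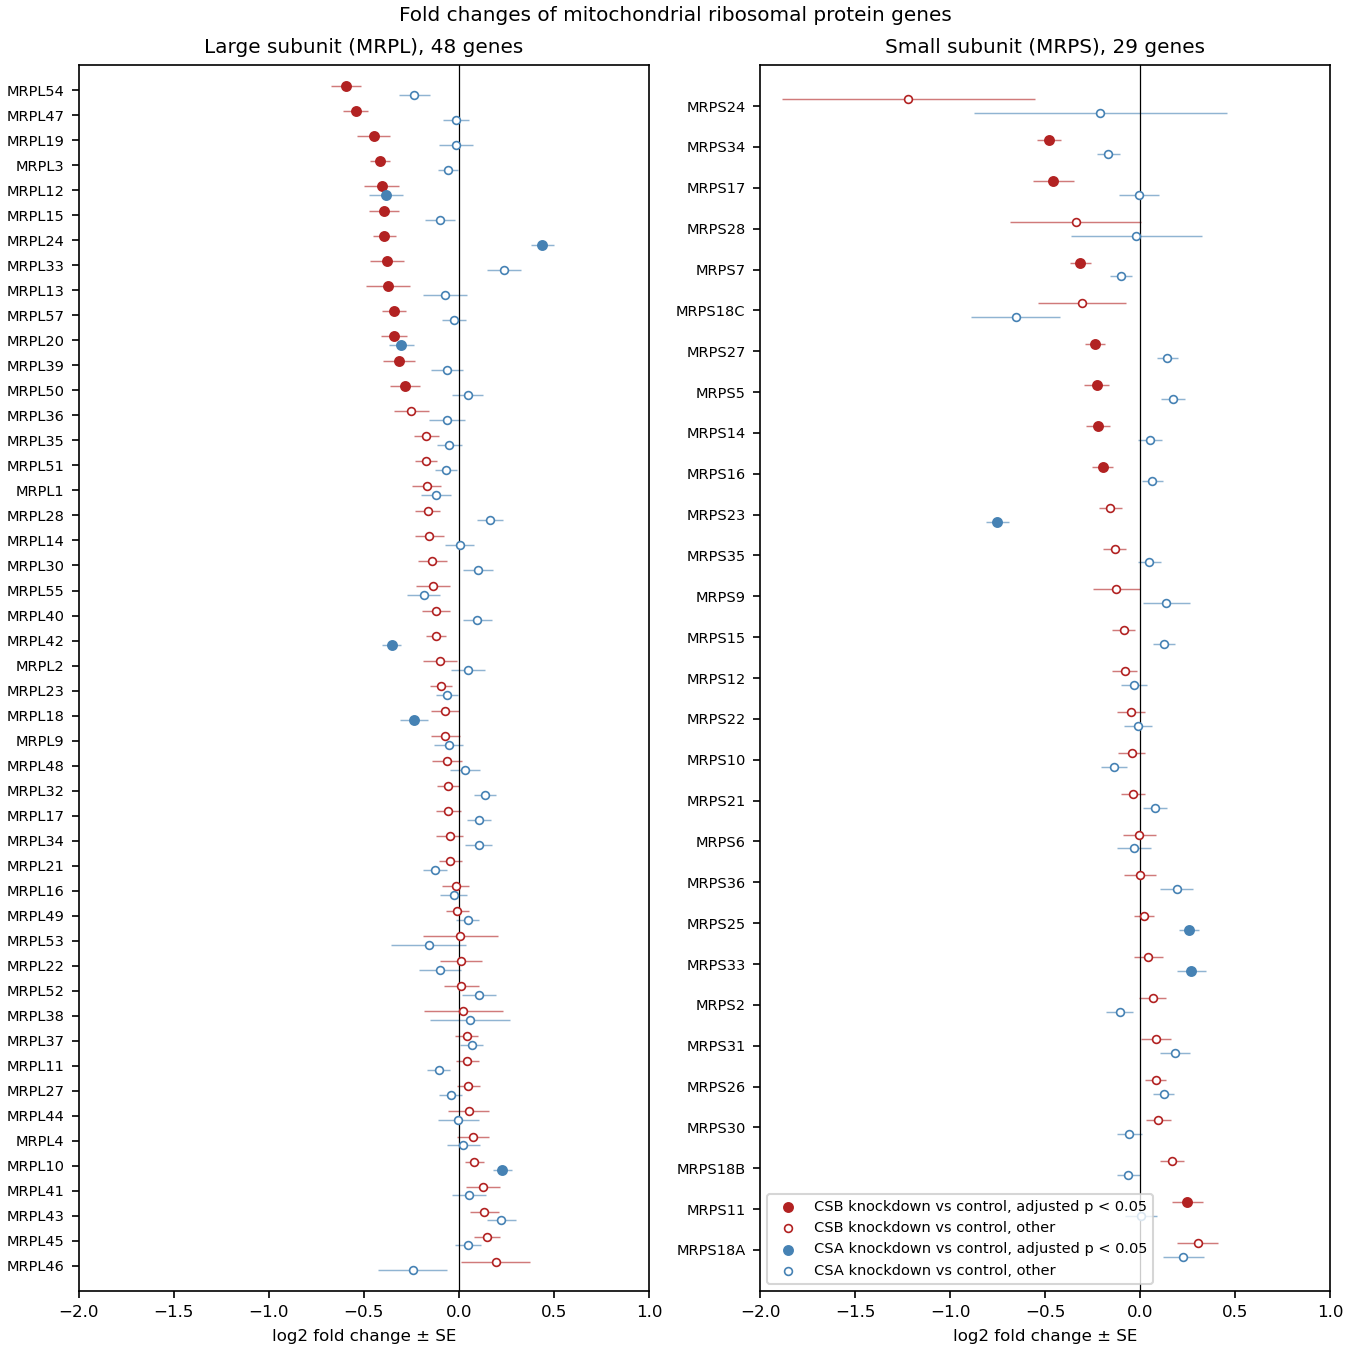
Log2 fold change ± SE of each large subunit gene (left) and small subunit gene (right) in the CSB knockdown (red) and the CSA knockdown (blue) against control, ordered by the CSB knockdown. Filled points have an adjusted p below 0.05. Filled red points are 20 falls and 1 rise, and filled blue points are 5 falls and 4 rises.

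Both comparisons use the same 2 control libraries, so their values are given side by side without a test of overlap. MRPL12 and MRPL20 fell in both knockdowns. MRPL24, the counterpart of bacterial L24 near the exit tunnel, had 1735 and 1644 under CSB knockdown, 2872 and 3140.4 under CSA knockdown and 2285 and 2154 in the controls (chr1:156737303-156741590, minus strand). Its groups did not overlap, with the CSB knockdown below and the CSA knockdown above the controls (-0.39 ± 0.06, adjusted p = 0.00045 in the CSB knockdown and 0.44 ± 0.06, adjusted p = 0.00025 in the CSA knockdown). Against control this CSB call was lost without either control library or either CSB knockdown library, with a highest adjusted p of 0.108. In all, 34 members were called in at least 1 of the 3 comparisons and 43 in none.

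Set directly against each other, the knockdowns differed in 30 members, 26 lower and 4 higher in the CSB knockdown than in the CSA knockdown. That is 39.0% called against 29.4% of all tested genes, with 33.8% lower against 11.3% and 5.19% higher against 18.1%. Of the protein-coding genes with a mean of at least 100 scaled counts 55.5% were called, 22.4% lower and 33.1% higher. The median fold change of members was -0.10, against 0.09 for all tested genes. With the other scalings it was -0.16 to -0.19, against -0.003 to 0.036 for all tested genes. With TMM scaling 34 were lower and 1 higher, with no share of all genes given for that scaling.

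MRPL24 showed the largest called difference (-0.83 ± 0.06, adjusted p = 5.3e-07), at 0.56 of the CSA knockdown level. It was followed among the falls by MRPL33 (-0.61 ± 0.09, adjusted p = 0.00019), MRPL47 (-0.53 ± 0.07, adjusted p = 6.8e-05), MRPS17 (-0.45 ± 0.11, adjusted p = 0.00637), MRPL19 (-0.43 ± 0.09, adjusted p = 0.00229) and MRPS5 (-0.40 ± 0.06, adjusted p = 0.00039). MRPL33 is the counterpart of bacterial L33 and MRPS5 that of bacterial S5, which lines the channel where messenger RNA enters. MRPS27, a pentatricopeptide repeat protein of the small subunit, had 1369 and 1394 under CSB knockdown and 1844 and 1759.5 under CSA knockdown (-0.38 ± 0.05, adjusted p = 0.00014), with 1649 and 1615 in the controls. The 3 groups of MRPS27 did not overlap.

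Higher in the CSB knockdown than in the CSA knockdown were MRPS23 (0.59 ± 0.06, adjusted p = 1.2e-05), MRPL42 (0.23 ± 0.05, adjusted p = 0.00387), MRPS11 (0.24 ± 0.08, adjusted p = 0.0436) and MRPS18B (0.23 ± 0.06, adjusted p = 0.0137). By edgeR only MRPS23 kept its call, with an adjusted p of 0.0717 for MRPL42, 0.192 for MRPS11 and 0.134 for MRPS18B. MRPL24, MRPL3, MRPL42, MRPL47, MRPS23, MRPS27 and MRPS5 were called with each of the 6 libraries left out. With any 1 library left out fewer members were called than with all 6, and fewer of all tested genes. MRPS17 missed the threshold without CSB knockdown replicate 2 (adjusted p = 0.0608). MRPL33 missed it without that library, CSB knockdown replicate 1 or CSA knockdown replicate 2 (highest adjusted p = 0.123). MRPL19 kept its call only without control replicate 2 (highest adjusted p = 0.134), and MRPS11 (0.288) and MRPS18B (0.0943) lost theirs without at least 4 of the 6 libraries.

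The subunits were set side by side in each comparison. In the CSB knockdown against control, 13 of 48 large subunit genes fell and none rose (27.1% called), and 7 of 29 small subunit genes fell and 1 rose (27.6%). The medians were -0.10 and -0.08. In the CSA knockdown against control, 2 large subunit genes rose and 4 fell, and 2 small subunit genes rose and 1 fell, with medians of -0.02 and 0.00. In the CSB knockdown against the CSA knockdown, 1 large subunit gene was higher and 15 lower, and 3 small subunit genes were higher and 11 lower, with medians of -0.09 and -0.18. Of all tested genes, 23.6%, 18.8% and 29.4% were called in these 3 comparisons, in that order. Called lower were 8.86%, 10.4% and 11.3%, and called higher 14.8%, 8.37% and 18.1%. Of protein-coding genes with a mean of at least 100 scaled counts, 47.8%, 38.2% and 55.5% were called. The large minus small difference of medians on the log2 scale was -0.01 in the CSB knockdown, -0.02 in the CSA knockdown and 0.09 between the knockdowns, with no test made. Counted by structure the difference in the CSB knockdown was 0.02, and among members that overlap no other listed gene that of the CSA knockdown was 0.01. Without CSB knockdown replicate 2 the difference between the knockdowns was 0.01, and without CSA knockdown replicate 2 that of the CSA knockdown was -0.11.

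**Figure D4:**
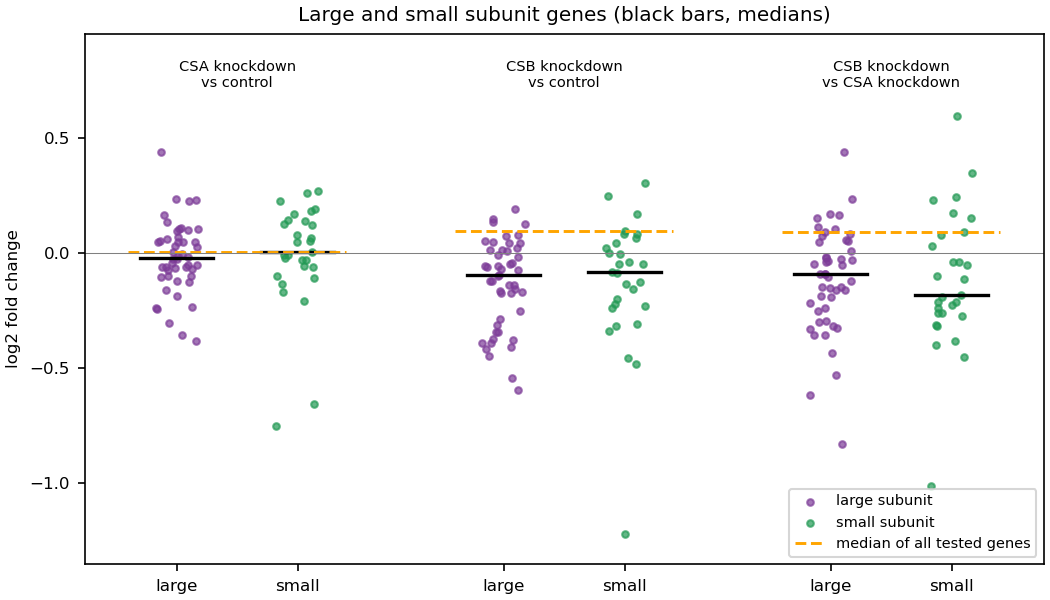
Log2 fold changes of large (purple) and small (green) subunit genes in 3 comparisons. Points are genes, black bars are medians and dashed orange lines are the medians of all 28388 tested genes. Both subunits have medians below the dashed line in the CSB knockdown, at -0.10 and -0.08 against control, and lie close to it in the CSA knockdown against control.

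By place in the particle, the stalk and its base (5 members) had 2 falls in the CSB knockdown, MRPL12 and MRPL54, and a rise of MRPL10 beside a fall of MRPL12 in the CSA knockdown. Of 7 members at or near the exit tunnel, MRPL24 and MRPL47 fell in the CSB knockdown and MRPL24 rose in the CSA knockdown. None of the 9 members of the central protuberance was called in the CSB knockdown, and MRPL18 fell in the CSA knockdown. Among 6 members of the decoding centre and messenger RNA channel, MRPS5 and MRPS7 fell and MRPS11 rose in the CSB knockdown, and none was called in the CSA knockdown. Of all tested genes 23.6% were called in the CSB knockdown and 18.8% in the CSA knockdown, and groups of 5 to 9 members are too small to be read as a result about a place. MRPS5, MRPS7 and MRPS11 are counterparts of bacterial S5, S7 and S11.

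The 48 members with a bacterial counterpart had 14 falls (29.2%) and 1 rise (2.08%) in the CSB knockdown, with a median of -0.13. The 29 without one had 6 falls (20.7%), with a median of 0.00. Of all tested genes 8.86% fell and 14.8% rose. Of protein-coding genes with a mean of at least 100 scaled counts 19.2% fell and 28.6% rose. Under CSA knockdown the medians of these groups of members were -0.03 and 0.05. No test of the difference was made.

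A trio of paralogs, MRPS18A, MRPS18B and MRPS18C, descends from bacterial S18. Their control levels per kilobase were 154 and 180.3 for MRPS18A, 397 and 403 for MRPS18B and 11.4 and 14.3 for MRPS18C. None of the paralogs passed the test against control. MRPS18A had 258 and 271 under CSB knockdown, 234 and 268 under CSA knockdown and 198 and 231 in the controls (0.30 ± 0.11, adjusted p = 0.0663 in the CSB knockdown). MRPS18C had 58.4 and 42.9 under CSB knockdown, 43.4 and 35.3 under CSA knockdown and 55.7 and 69.4 in the controls (-0.66 ± 0.23, adjusted p = 0.0735 in the CSA knockdown). Since MRPS18A and MRPS30 sit in the large subunit despite their names, and MRPS36 is a subunit of the oxoglutarate dehydrogenase complex, the counts were repeated by structure. The large subunit then had 13 falls among 50 members and the small subunit 7 falls and 1 rise among 26 in the CSB knockdown. MRPS30 (0.09 ± 0.07, adjusted p = 0.365) and MRPS36 (-0.00 ± 0.08, adjusted p = 1) were not called there.

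Pseudogene copies took few reads. Of 25 other entries with the same symbol stem 24 were pseudogenes, and their 472 reads over all libraries were 0.109% of the 433928 reads of members. The most in 1 library was 65 reads, for MRPS31P5, an unprocessed copy.

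Promoters were read for the 68 members with a RefSeq window of 250 bases before to 50 after the gene start (GRCh38.p14). Where a gene has more than 1 start, members used the start nearest the deposited one. The comparison sets, which include the members, used the first listed start, so the shares rest on unlike choices of window. Nuclear genes for mitochondrial proteins are known to be driven by the ETS factor GABPA, also called NRF2, by NRF1 and by YY1. The GABPA motif CCGGAAG, searched on both strands, was in 28 of the 68 windows (41.2%), against 20.2% of 8861 protein-coding genes with a mean of at least 100 scaled counts and 10.7% of all 27305 windows. The YY1 motif GATGGCG was in 15 of the 68, against 8.14% and 4.35%. The NRF1 motif GCATGCG was in 7 (10.3%), against 6.81% and 4.13%. Both strands were searched for each, and no matches of different motifs shared bases in a member window. These shares moved with the letters searched. With GC required on both sides of GCATGC the NRF1 motif was in 1 member window (1.47%), against 2.42% and 1.36%, and with AA before and GC after it the YY1 motif was in 10 (14.7%), against 2.22% and 0.916%.

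Of the 20 members that fell under CSB knockdown 18 had a window, and 7 of these (38.9%) held the GABPA motif, 3 (16.7%) the YY1 motif and none the NRF1 motif. Among the other 50 members with a window the GABPA motif was in 21 (42.0%), the YY1 motif in 12 (24.0%) and the NRF1 motif in 7. A match describes letters only, and no binding was measured here.

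The 250 bases before the RefSeq start are shown for MRPL3, which fell in the CSB knockdown, and for MRPS23 and MRPL42, which fell in the CSA knockdown, since their calls held with each library left out. Capitals mark the GABPA motif, read 5′ to 3′ along the strand of the gene. In MRPL3 (chr3:131502972-131503221, minus strand) it lies 32 to 26 bases before the start, in MRPS23 (chr17:57850045-57850294, minus strand) its reverse complement lies 14 to 8 bases before the start, and in MRPL42 (chr12:93467264-93467513, plus strand) none of the 3 motifs lies in the stretch shown, while the YY1 motif lies in the 50 bases after its start. The window of MRPL47, whose call also held, has 215 bases annotated as exon and is not shown.
MRPL3: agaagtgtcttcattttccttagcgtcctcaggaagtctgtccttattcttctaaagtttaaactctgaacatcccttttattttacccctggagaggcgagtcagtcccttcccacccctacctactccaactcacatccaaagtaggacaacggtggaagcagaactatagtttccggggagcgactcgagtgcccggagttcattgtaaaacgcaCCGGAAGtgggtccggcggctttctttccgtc
MRPS23: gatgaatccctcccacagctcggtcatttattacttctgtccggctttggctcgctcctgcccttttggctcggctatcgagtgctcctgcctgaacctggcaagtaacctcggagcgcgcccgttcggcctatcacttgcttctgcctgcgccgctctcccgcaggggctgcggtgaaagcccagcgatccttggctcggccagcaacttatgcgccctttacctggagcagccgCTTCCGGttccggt
MRPL42: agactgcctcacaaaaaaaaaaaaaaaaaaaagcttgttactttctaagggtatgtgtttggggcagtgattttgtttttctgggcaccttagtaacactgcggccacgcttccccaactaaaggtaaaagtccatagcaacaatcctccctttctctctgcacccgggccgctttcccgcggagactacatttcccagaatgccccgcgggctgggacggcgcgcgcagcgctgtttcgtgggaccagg

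Mitochondrial ribosome proteins that carry other symbols were followed as a list together with OXA1L, an inner membrane insertase that binds the ribosome at the exit tunnel and is not one of its proteins. Of 7 listed, 4 fell (57.1%) and none rose in the CSB knockdown, and 3 rose (42.9%) and none fell in the CSA knockdown. For this and each list below, the shares of all tested genes were 14.8% higher and 8.86% lower in the CSB knockdown. In the CSA knockdown they were 8.37% and 10.4%. Of protein-coding genes with a mean of at least 100 scaled counts, 28.6% were higher and 19.2% lower in the CSB knockdown. In the CSA knockdown these were 16.7% and 21.5%. Without OXA1L 3 of 6 fell in the CSB knockdown and 2 of 6 rose in the CSA knockdown. OXA1L had 1297 and 1304 under CSB knockdown, 2443 and 2267 under CSA knockdown and 1712 and 1724 in the controls (-0.40 ± 0.05, adjusted p = 0.0002 in the CSB knockdown and 0.45 ± 0.05, adjusted p = 9.3e-05 in the CSA knockdown). Its groups did not overlap, with the CSA knockdown highest and the CSB knockdown lowest. ICT1, a peptidyl-tRNA hydrolase of the large subunit also named MRPL58, fell in the CSB knockdown (-0.37 ± 0.07, adjusted p = 0.00176), as did CHCHD1 (-0.40 ± 0.07, adjusted p = 0.00109) and PTCD3 (-0.17 ± 0.05, adjusted p = 0.0422) of the small subunit. DAP3, a GTP-binding protein of the small subunit, rose in the CSA knockdown (0.24 ± 0.05, adjusted p = 0.00501), as did PTCD3 (0.18 ± 0.05, adjusted p = 0.0415).

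Of 31 genes for assembly of the mitochondrial ribosome and modification of its RNA, 4 rose (12.9%) and 4 fell (12.9%) in the CSB knockdown. In the CSA knockdown 6 rose (19.4%) and 2 fell (6.45%). C1QBP, a matrix protein needed for mitochondrial translation, had 2694 and 2536 under CSB knockdown, 4661 and 4342 under CSA knockdown and 4201 and 4446 in the controls and fell in the CSB knockdown (-0.73 ± 0.06, adjusted p = 2.6e-06). SLIRP (-0.55 ± 0.09, adjusted p = 0.00058) and LRPPRC (-0.42 ± 0.06, adjusted p = 0.00026), partners that stabilise mitochondrial messenger RNA, also fell there. NOA1, a GTPase of small subunit assembly, rose there (0.54 ± 0.07, adjusted p = 0.00018). Under CSA knockdown NGRN, which binds the large ribosomal RNA of mitochondria, fell (-0.68 ± 0.07, adjusted p = 1.9e-05) and YBEY, an endoribonuclease, rose (0.49 ± 0.07, adjusted p = 0.00058).

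Among 14 mitochondrial translation factors 2 rose (14.3%) and 3 fell (21.4%) in the CSB knockdown, and 3 rose (21.4%) and none fell in the CSA knockdown. GFM1, the elongation factor G of mitochondria, had 782 and 728 under CSB knockdown, 1199 and 1094 under CSA knockdown and 1159.7 and 1139 in the controls and fell in the CSB knockdown (-0.61 ± 0.07, adjusted p = 3.2e-05). GFM2, which recycles the ribosome, fell in the CSB knockdown (-0.26 ± 0.08, adjusted p = 0.0326) and rose in the CSA knockdown (0.38 ± 0.08, adjusted p = 0.00469).

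Of 26 genes for mitochondrial import, chaperones and outer membrane 2 rose (7.69%) and 12 fell (46.2%) in the CSB knockdown. In the CSA knockdown 2 rose (7.69%) and 6 fell (23.1%). The matrix chaperones HSPD1 (-0.56 ± 0.05, adjusted p = 6.4e-06) and HSPA9 (-0.56 ± 0.05, adjusted p = 5.2e-06) and the import channel protein TIMM23 (-0.47 ± 0.05, adjusted p = 3.9e-05) fell in the CSB knockdown. TOMM22, a receptor of the outer membrane translocase, had 1075 and 1028 under CSB knockdown, 339 and 339 under CSA knockdown and 1292 and 1301 in the controls and fell in both (-0.30 ± 0.06, adjusted p = 0.00293 in the CSB knockdown and -1.93 ± 0.06, adjusted p = 5e-09 in the CSA knockdown).

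Of 14 genes of mitochondrial DNA replication and transcription 3 rose and 3 fell in the CSB knockdown, TFAM, which packages that DNA, among the falls (-0.49 ± 0.05, adjusted p = 2.4e-05). Under CSA knockdown 1 rose and 2 fell. Of 15 mitochondrially encoded ribosomal and messenger RNAs 2 rose and 3 fell in the CSB knockdown, and 1 rose and 1 fell in the CSA knockdown. MT-RNR1, the ribosomal RNA of the small subunit, had 22729 and 21887 under CSB knockdown, 20893 and 21215 under CSA knockdown and 19429 and 20500.2 in the controls (0.16 ± 0.05, adjusted p = 0.0408 in the CSB knockdown). MT-RNR2, that of the large subunit, changed by -0.15 ± 0.07, adjusted p = 0.121 in the CSB knockdown and -0.07 ± 0.07, adjusted p = 0.555 in the CSA knockdown.

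**Figure D5:**
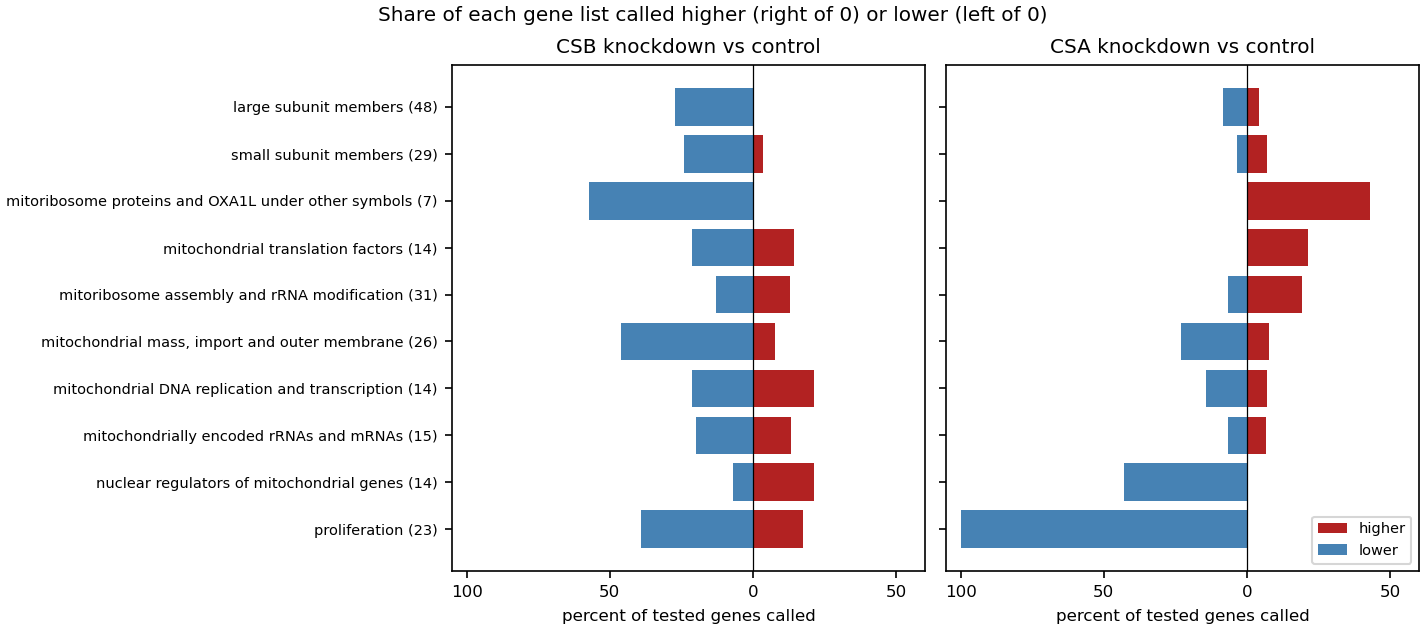
Percent of tested genes called higher (red, right of 0) or lower (blue, left of 0) in each list, in the CSB knockdown (left) and the CSA knockdown (right) against control, with the number of tested genes in parentheses. On the left the bars of both subunits and of the list under other symbols, which includes OXA1L, run to the left, at 27.1%, 24.1% and 57.1%.

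Of 14 nuclear regulators of mitochondrial genes 3 rose (21.4%) and 1 fell (7.14%) in the CSB knockdown, and none rose and 6 fell (42.9%) in the CSA knockdown. MYCN (1.12 ± 0.13, adjusted p = 6.1e-05) and ESRRA (0.51 ± 0.07, adjusted p = 0.00017) rose in the CSB knockdown, and MYC fell in the CSA knockdown (-0.53 ± 0.05, adjusted p = 2.1e-05). Of 23 proliferation genes 4 rose (17.4%) and 9 fell (39.1%) in the CSB knockdown, and all 23 fell in the CSA knockdown. Of the mesenchymal markers 6 rose and 1 fell in the CSB knockdown, and none rose and 9 fell in the CSA knockdown. The part of these differences in the values of the members was not tested.

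Members have short gene models, with a median of 2539 bases over all 77. Protein-coding genes with a mean of at least 100 scaled counts had 5308. The values by length below cover only genes and members at that level. In CSB knockdown replicate 2 minus replicate 1, protein-coding genes of up to 2000 bases had a median of -0.07 on the log2 scale and those over 8000 bases 0.04. Within bins of length the member median in the CSB knockdown against control stayed below that of protein-coding genes, at -0.13 against -0.02 for up to 2000 bases (27 members), -0.08 against 0.04 for over 2000 and up to 4000 bases (29 members) and -0.03 against 0.06 for over 4000 and up to 8000 bases (14 members).

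The genes whose levels followed the mean standardised log2 level of members most closely over the 6 libraries were MYL6, TCEB1, ATP5L, CHCHD4 and COX6C, with Pearson correlations of 0.977 to 0.980 among 12012 genes considered. COX6C, a subunit of cytochrome c oxidase, had 1966 and 1603 under CSB knockdown, 2362 and 2599 under CSA knockdown and 2292 and 2530.1 in the controls. Like the other 4 it was lowest in CSB knockdown replicate 2, and with 6 libraries from 3 groups these correlations are a description only.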

How the data were processed

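Libraries were made from 1 µg of total RNA, per the labels' protocols. FastQC and HISAT2 2.0.4 with hg38 are named per the submitters' processing notes. Neither a counting tool nor a strand setting or annotation release was given there. The deposited columns carry the name FPKM per the file headers. Yet 100% of the values in each library were whole multiples of its smallest value (tolerance 0.01), so the deposited unit is a signal, gene read counts scaled by one factor per library. Gene length is another deposited column, in bases. A gene absent from a library was taken as 0.

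limma (3.58.1, R 4.3.3) with a mean-variance trend was fitted to log2(scaled count + 1) of all 6 libraries in 3 groups, with 3 residual degrees of freedom, and tested on simulated data. Tested genes had a group mean of at least 1 somewhere, and Benjamini-Hochberg adjustment ran over all of them. The pseudocount of 1 shrinks the fold changes of low genes. Because the design named edgeR's quasi-likelihood test for raw counts and limma for scaled values, limma was used, and edgeR (4.0.16) and DESeq2 (1.42.0) on recovered reads were alternatives. Other alternatives were pseudocounts of 0.5 and 5, filters, scalings, a replicate block, trends on length or span removed, and each library left out.

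Named members were, per comparison, the 8 largest rises and falls called, members called in both knockdowns in opposite directions or in all 3 comparisons, the 4 highest and 4 lowest per length, the MRPS18 paralogs, MRPS30, MRPS36 and ICT1. Others named were chosen after their values were seen. Exon sharing came from GENCODE v29 and promoters from RefSeq (GRCh38.p14). The shorter NRF1 and YY1 letters were chosen after the shares of the longer forms had been seen. The members and lists were chosen with earlier results of these data known.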

Additional observations from a re-analysis of the deposited data

Results flagged for a closer look

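MRPL24 was called in both knockdowns in opposite directions, and so was the difference between the knockdowns. That difference comes from the same fit and libraries as the 2 opposite calls, so it is not separate support for them. Each call against control was lost when some single libraries were left out, as given above. The CSB knockdown minus CSA knockdown difference was -0.83 on the log2 scale (SE 0.06, limma adjusted p = 5.3e-07). Scaled counts were 1735 and 1644 under CSB knockdown, 2872 and 3140.4 under CSA knockdown and 2285 and 2154 in the controls, and the difference was called with each of the 6 libraries left out, with an adjusted p of at most 0.0253. MRPL24 was the only member with opposite calls, but genes of the related lists had them too. PTCD3, OXA1L and GFM2 fell in the CSB knockdown and rose in the CSA knockdown. NGRN and WBSCR16, of the list for assembly, rose in the CSB knockdown and fell in the CSA knockdown.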

How the results depend on the processing

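The direction of each median held in every alternative for the CSB knockdown against control and against the CSA knockdown, and no call of a named member changed sign. Of 41 calls of named members 11 held with each library left out. Leaving out libraries gave 2 to 19 members called in the CSB knockdown against control (21 with all 6 libraries), 2 to 8 in the CSA knockdown against control (9) and 9 to 22 in the CSB knockdown against the CSA knockdown (30). The large minus small difference of medians then ranged from -0.063 to -0.015 in the CSB knockdown, from -0.108 to -0.0041 in the CSA knockdown and from 0.0122 to 0.0871 between the knockdowns. Each such fit has fewer samples, and fewer of all tested genes were called in it as well. In the CSB knockdown its sign turned with subunits by structure (0.022), and in the CSA knockdown among members that overlap no other listed gene (0.0122).

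Under CSA knockdown 14 members were called by edgeR (8 higher, 6 lower) and 14 with a filter at a mean of 10. The share of all genes called in these runs is not given here, so these counts stand without a background. Among the 33 members that overlap no other listed gene 8 were called in the CSB knockdown (24.2%) and 13 between the knockdowns (39.4%), out of fewer genes. Of all tested genes these shares were 23.6% and 29.4%. The member median in the CSB knockdown was -0.18 by DESeq2, -0.18 with DESeq2 size factors, -0.20 with the length trend removed and -0.22 with the span trend removed, the last added after the data were seen. Between the knockdowns it was -0.19 by DESeq2, with DESeq2 size factors, with TMM and with quantile scaling, -0.19 by edgeR, -0.22 with the length trend and -0.24 with the span trend removed. Why these values moved was not tested.

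Replicate numbers did not pair the libraries, with correlations of deviations of -0.04 to -0.03 between same-numbered libraries, and only 2 numbers exist. With a replicate block 21 members were called in the CSB knockdown against control, 9 in the CSA knockdown against control and 28 between the knockdowns. No share of all genes is given for that fit either. With 2 libraries a group, differences of well over their SE could go uncalled, such as MRPL54 under CSA knockdown at -0.24 ± 0.08, adjusted p = 0.0649 by limma, and members with few reads, MRPS24 above all, had the widest SE (0.67).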

Other observations

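Of the 77 members 17 share a head-to-head arrangement with a protein-coding neighbour whose start lies within 1000 bases on the other strand. They form 16 pairs, since MRPL46 and MRPS11 neighbour each other. The fold changes of a pair had the same sign in 8 of 16 in the CSB knockdown and in 9 of 16 in the CSA knockdown. Both genes were called in 2 pairs in the CSB knockdown and in 1 pair in the CSA knockdown. Of all tested genes 23.6% were called in the CSB knockdown and 18.8% in the CSA knockdown. No share of other gene pairs is given, so the pair counts are a description only. In the CSB knockdown MRPS34 had a fold change of -0.48 while EME2, its neighbour at a gap of 52 bases, had 0.51 ± 0.08 (limma adjusted p = 0.00044). EME2 partners a DNA endonuclease. MRPL54 and APBA3, at a gap of 965 bases, had -0.59 and 0.52 ± 0.10 (adjusted p = 0.00228). Under CSA knockdown MRPL18 and TCP1, a subunit of the cytosolic chaperonin at a gap of 63 bases, had -0.24 and -0.35 ± 0.05 (adjusted p = 0.00025). These 3 pairs were chosen after their values were seen.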
